A study of Mus musculus with 16 samples.

Results

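The comparison set adipocyte precursor cells (APCs) against mesothelial-like cells (MLCs), both sorted as Pdgfrb-expressing cells from mouse epididymal white fat. It was made on 8 of the series' 16 RNA libraries, APCs replicates 1 to 4 and MLCs replicates 1 to 4, chosen by their column names in the deposited table of normalized counts. A normalized count is a gene's read count divided by 1 scaling factor per library. Genes entered the test where at least 4 of the 8 libraries had a value of 10 or more, which held for 14431 of 27179 rows. All mice were C57BL/6 at postnatal day 7, carried no stated allele or treatment, and gave freshly isolated cells, of which 250 ng total RNA went into each library. The labels name no gate for either population, do not say whether PDGFRB was read with an antibody or a reporter, and do not say whether the 4 libraries came from separate or pooled animals, so p-values speak only of how these libraries spread, and that spread may be technical.

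Adipocyte precursors are stromal cells of the fat depot that can be driven by the nuclear receptor PPARG to take up fatty acids, store triglyceride and become fat cells. Mesothelium is a simple epithelium that covers the depot and faces the abdominal cavity; it carries keratins, tight junctions and an apical glycoprotein coat, and it keeps the transcription factor WT1 from its origin in the embryonic body cavity lining. PDGFRA and PDGFRB are tyrosine kinase receptors for platelet-derived growth factors and are widely used to mark stromal and mural cells. In published work on adult gonadal fat, cells of these kinds were separated by their surface LY6C and CD9, so Cd9 and Ly6c1 are given below as a check of the sort and not as findings; whether the same gates were used here is not given in the sources used here.

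The 2 populations were far apart. The first principal component of the 8 libraries held 92.6% of the variance and separated APCs from MLCs, and Pearson correlations across genes were 0.973 to 0.994 among APCs, 0.990 to 0.993 among MLCs and 0.764 to 0.775 between them (genes are not independent replicates). Of 14431 genes, 4225 were called (29.3%), at a Benjamini-Hochberg adjusted p under 0.05 in limma and a change of at least 2-fold on log2(value + 1). Of these, 1650 were higher in APCs (11.4% of genes tested) and 2575 were higher in MLCs (17.8%). Changes of at least 32-fold on the same scale were also more often towards MLCs, with 374 genes against 157. Many calls rest on low values in the other population. Of the 2575 genes higher in MLCs 805 had an APC mean under 10, and of the 1650 higher in APCs 378 had an MLC mean under 10. Fold changes are given as log2 of APCs over MLCs with the standard error where one is shown, so a negative value means higher in MLCs, and a value of 1 added before the logarithm understates the change of genes with low values. Each gene list below can be read against these values over all genes tested, 11.4% higher in APCs, 17.8% higher in MLCs and a median log2 change of -0.02. A bulk value cannot tell fewer cells of a kind from less RNA per cell.

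The libraries held about 11220000 to 27530000 reads, with APCs replicate 4 the shallowest. That library also stood apart: it held the only APC value on the far side of the second principal component (3.66% of the variance), and 21 of 10850 genes exceeded all other APC libraries there by at least 4-fold, against 0, 0 and 0 genes for replicates 1, 2 and 3. Without it 4215 genes were called (29.2%), and 4065 of the 4225 calls held in the same direction. Several results are given with and without it.

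**Figure D1:**
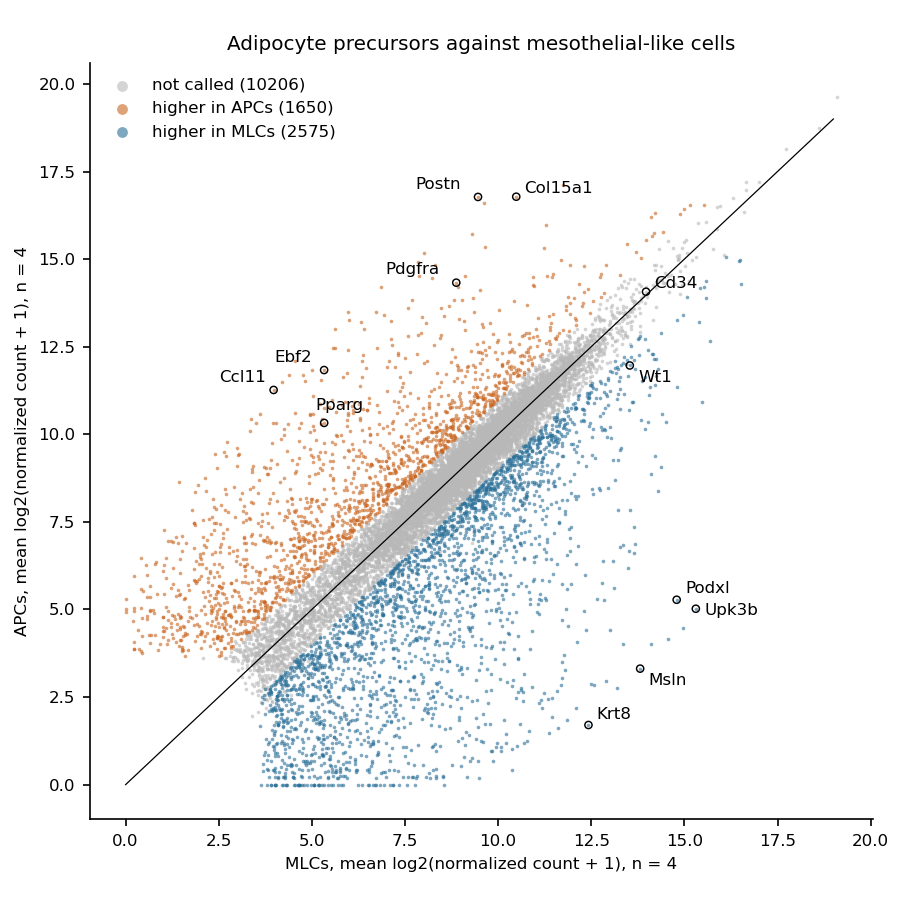
Mean log2(normalized count + 1) in MLCs (x axis) and APCs (y axis), 1 point per gene tested (14431 genes), averaged over 4 libraries each. Genes called higher in APCs (1650) lie above the diagonal and genes called higher in MLCs (2575) below it. The mesothelial genes Krt8, Msln and Upk3b lie towards the bottom right, low in APCs, whereas Wt1 was high in both populations.

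Most markers of each cell type were higher in the population named for it. These marker lists were chosen with earlier results of these data known, so their counts describe the populations and do not test their identity. All 12 of the mesothelial defining markers were higher in MLCs, with a median log2 change of -10.03 against -0.02 over all genes tested. Of 11 precursor markers 10 were higher in APCs (median 4.26). The exception was Cd34, coding for a sialomucin of progenitor cells: its normalized counts in replicates 1 to 4 were 15328, 17275, 17424 and 18902 in APCs and 16595, 15947, 15929 and 15775 in MLCs, and the populations overlapped. Pdgfra was at 20330.2, 20427, 20899 and 20565 in APCs and 462, 494, 515 and 412 in MLCs, with no overlap, as in 64.2% of all genes tested. All cells were sorted on PDGFRB, yet the level of Pdgfrb RNA differed between the populations, at 4489.6, 4804, 4870.5 and 4705 in APCs and 452, 483, 472 and 419 in MLCs. As mean ± SD of normalized counts (n = 4 each, here and below), Cd9, coding for a tetraspanin, was at 92.8 ± 30.4 in APCs and 2001 ± 124 in MLCs and Ly6c1 at 94.5 ± 27.4 in APCs and 23.4 ± 9.04 in MLCs. Itgb1, coding for the beta-1 integrin chain that most adherent cells use, was at 13563 ± 1531 in APCs and 12798 ± 319 in MLCs and was not called. Dpp4, coding for a surface peptidase used to mark interstitial progenitors, was at 53.2, 34.2, 32.9 and 89.9 in APCs and 9132, 8215, 8969.6 and 8905 in MLCs. Of 12 interstitial progenitor markers 4 were higher in APCs, among them Pi16 (4.13 ± 0.10), and 7 in MLCs, among them Anxa3 (-2.34 ± 0.15) beside Dpp4.

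Markers of lymphocytes, red cells and epididymal epithelium were low in both populations, whereas those of smooth muscle, pericytes and endothelium were not. Of 12 macrophage and myeloid markers 8 did not reach the value filter, among them Ptprc (4.36 ± 4.56 in APCs and 5.36 ± 4.47 in MLCs), which codes for the pan-leukocyte antigen CD45. Of the 4 tested 2 were higher in MLCs, 0 in APCs and 2 were not called. The summed level of the list was 586 to 1311 in APCs and 2492 to 3044 in MLCs. Most of the MLC sum was Csf1r, described below, whereas most of the APC sum came from other members. Lymphocyte markers summed to 13.8 to 49.9 and 28.5 to 40.6, erythroid markers to 75.5 to 138 and 67.0 to 170.0, and none of the 8 epididymal epithelium markers reached the filter. Endothelial markers summed to 1181 to 1793 in APCs and 4867 to 5902 in MLCs. Pecam1, which defines endothelium, was not called, at 102 ± 30.7 in APCs and 102 ± 47.4 in MLCs. In the same list Kdr (-3.60 ± 0.15) and Esam (-5.92 ± 0.20) were higher in MLCs and Tek (4.28 ± 0.14) in APCs. These were the only called members, and 9 of the 12 were not called. The called share was 25%, against 29.3% over all genes. Mature adipocyte markers summed to 2077 to 2629 in APCs and 236 to 271 in MLCs, with all 7 tested members higher in APCs. In the Schwann and neural list the defining marker Sox10 did not reach the filter, and Mbp, best known for myelin, was at 11.2 ± 4.97 in APCs and 3332 ± 62.8 in MLCs. Smooth muscle markers summed to 10611, 10383, 10621 and 13560.3 in APCs replicates 1 to 4 and 12556, 12640.0, 13020.3 and 12456 in the MLC libraries. The list was split, with 2 of 10 members higher in APCs, 4 in MLCs and 4 not called. Acta2, the gene of smooth muscle actin, had 221, 218, 156 and 2388 in APCs and 1143, 1627, 1604 and 1338 in MLCs: replicate 4 alone lay above the MLC libraries. The log2 change was -1.95 with it and -2.85 without it, called higher in MLCs both times, but the call was lost without APCs replicate 1, 2 or 3 or MLCs replicate 2, 3 or 4 (lowest size -1.54). Pericyte markers summed to 7413 to 8977 in APCs and 4419 to 4822 in MLCs. Of 10 of them 6 were higher in APCs, among them Notch3 and Abcc9 (1.47 ± 0.09), and 2 in MLCs (1 without APCs replicate 4), while Mcam was not called and Rgs5, at 46.0 ± 6.55 in APCs and 23.0 ± 11.7 in MLCs, was no longer called without MLCs replicate 2 (0.82). The part of these other cells in the results below was not tested.

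Keratins and uroplakin family members were among the genes with the largest rise in MLCs. Krt8, a keratin of simple epithelia (Entrez gene 16691; GRCm38 chromosome 15, 101996711 to 102004342), was at 6.76, 0, 4.29 and 1.73 in APCs and 5290.0, 5361, 5189 and 6207 in MLCs, a log2 change of -10.72 ± 0.50 (adjusted p = 8.17e-09). Its filament partner Krt18 was at 0.845, 0, 0.715 and 0 in APCs and 1225, 1313, 1297 and 1530.0 in MLCs; only 2 reads in all fell on it in the 4 APC libraries, so no fold is given. The gene lies on the same chromosome at 102028216 to 102032026. Msln, coding for the surface glycoprotein mesothelin, was at 21.1, 4.03, 10.01 and 6.92 in APCs and 14463, 14030.3, 13878 and 15213 in MLCs. Upk3b, a uroplakin of mesothelium, was at 32.1, 21.1, 30.7 and 46.7 in APCs and 39960.4, 41414, 40503 and 40328 in MLCs. In each of these genes the APC libraries were at or below 46.7 and the MLC libraries at or above 1225. The others among the 15 largest rises were Pkhd1l1, Upk1b, Lrrn4, Krt19, Krt7, Slpi, which codes for a secreted protease inhibitor, Dmkn, Bnc1, Chst4, Tmem151a and Lrp2, the endocytic receptor megalin, with log2 changes from -10.51 to -9.63.

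Genes of secreted stromal proteins were among the largest rises in APCs. Postn, which codes for secreted periostin (Entrez gene 50706; GRCm38 chromosome 3, 54359267 to 54391041), was at 102413, 109905, 113202 and 123865 in APCs and 664, 839.7, 733 and 599.5 in MLCs, a log2 change of 7.31 ± 0.10 (adjusted p = 1.23e-12). Aspn and Lum code for small leucine-rich proteoglycans of collagen fibrils and had log2 changes of 7.53 ± 0.17 and 7.09 ± 0.14. Dpt, coding for dermatopontin, was at 33501, 32718, 38284 and 43010.1 in APCs and 239, 311, 266 and 218 in MLCs. Penk, the precursor of enkephalin peptides, was at 7325, 8209, 8173 and 9614 in APCs and 43.6, 58.4, 52.4 and 39.6 in MLCs. Enzymes and signalling genes stood beside the matrix genes: Adh1, an alcohol dehydrogenase (7.26 ± 0.21), Sult1e1, an estrogen sulfotransferase (7.29 ± 0.20), Pde11a, a phosphodiesterase (7.21 ± 0.43) and Fndc5 (7.30 ± 0.16). Also among the 15 largest rises were Lrrc17, Mfap4, Ccl11, Itga8 and Vtn, from 7.05 to 7.54. Postn, Aspn, Lum, Dpt and Penk were low rather than at 0 in MLCs, with 39.6 to 839.7 normalized counts in the MLC libraries. Others of these genes were near 0 there, with Pde11a at 0, 1.69, 4.43 and 2.64 and Vtn from 4.40 to 6.77.

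**Figure D2:**
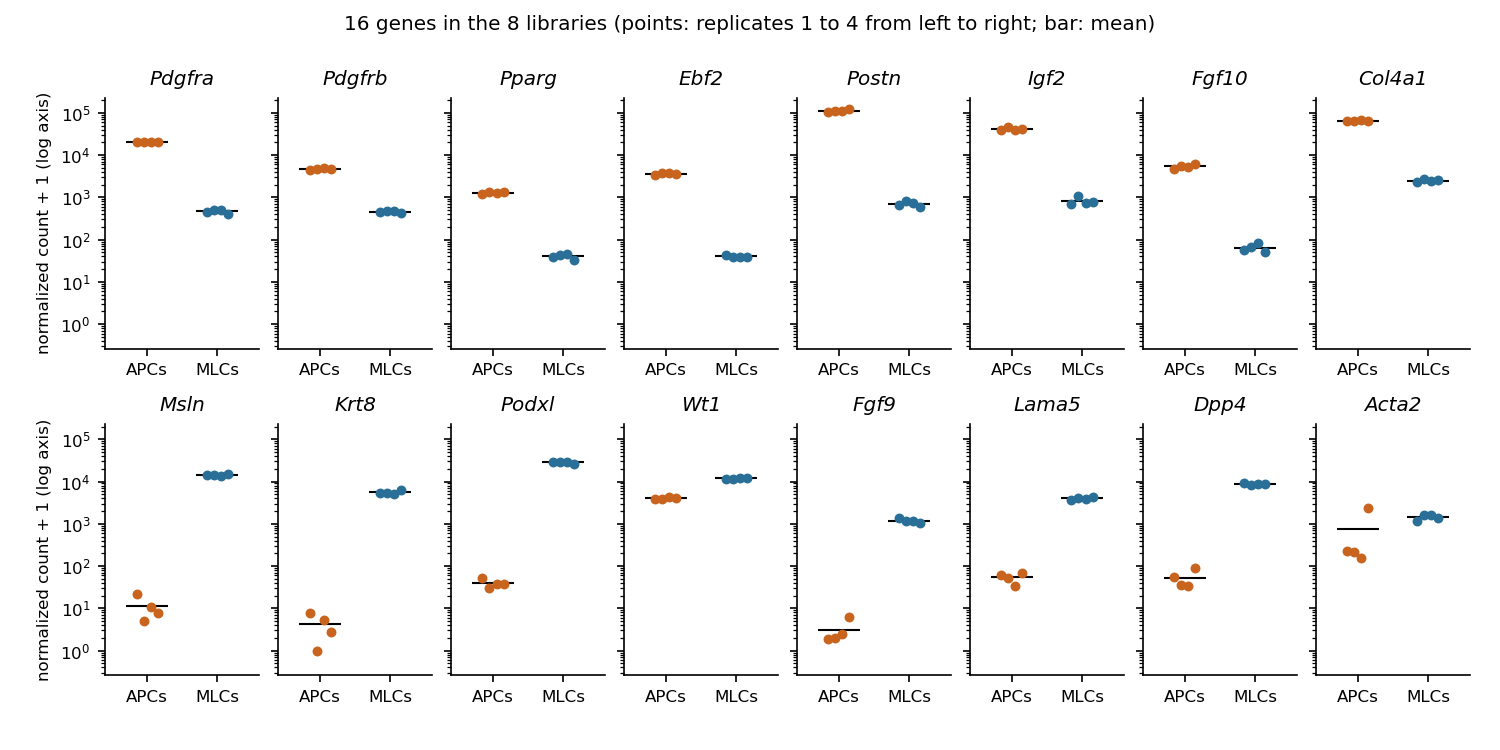
Normalized counts (log axis, value + 1) of 16 genes in each of the 8 libraries, 1 point per library, APCs on the left and MLCs on the right of each panel, with the mean as a bar. The libraries of a population lie close together beside the gap between populations, except for Acta2, where APCs replicate 4 (2388) lies above every MLC library.

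Most tested genes of the apical surface and of epithelial cell junctions were higher in MLCs. Of 14 apical surface genes tested 10 were higher in MLCs and 0 in APCs (median log2 -9.26). Podxl, coding for the sialomucin podocalyxin, was at 51.6, 29.2, 37.2 and 36.3 in APCs and 29519.5, 28615, 28927 and 26589 in MLCs. Ezr, coding for ezrin, which ties apical membrane to actin, differed by -7.04 ± 0.10, whereas its paralogs radixin and moesin, from Rdx and Msn, were not called, with Rdx at 4732 ± 351 in APCs and 4573 ± 199 in MLCs and Msn at 4439.7 ± 159.8 in APCs and 4297 ± 192 in MLCs. Muc16, coding for a membrane mucin, was at 0.845, 1.01, 0.715 and 0 in APCs and 980.2, 891, 942 and 876 in MLCs; its APC values rest on 3 reads. Among intermediate filament genes 7 of 11 were higher in MLCs, and all of them were keratins. Krt19 was at 8.45, 6.04, 17.9 and 55.3 in APCs and 17184, 18199, 17133 and 18528 in MLCs. Krt14, a keratin of basal epithelia, was at 521 ± 117 in MLCs, with 2 reads in all in APCs. Nes, coding for nestin, was higher in APCs (4.001 ± 0.09), and Vim, coding for the mesenchymal filament vimentin, was not called (0.50 ± 0.07). The list's median was -7.17, or -7.68 with Krt15, which had no read in APCs, set to the bound that 3 reads over the 4 libraries allow.

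Of 22 tight junction genes 16 were higher in MLCs and 2 in APCs. Cgn, coding for the junctional plaque protein cingulin, was at 3.38, 7.05, 5.004 and 0 in APCs and 2667, 2867, 2632 and 3016 in MLCs, and Pard6b, a polarity protein, at 10.99, 1.01, 5.004 and 10.4 in APCs and 3010.3, 3013, 3059 and 3109 in MLCs. Claudins form the seal itself: Cldn10 (-7.85 ± 0.18) and Cldn15 (-2.93 ± 0.07), both of which build ion-conducting junctions, and Cldn1 (-2.99 ± 0.17) were higher in MLCs. Crb2, a polarity protein of the Crumbs family (-8.85 ± 0.29), F11r (-5.45 ± 0.11) and Tjp1, coding for ZO-1 (-1.28 ± 0.06), moved the same way. Jam2 was higher in APCs, at 746 ± 88.6 in APCs and 61.6 ± 3.81 in MLCs. In the adherens junction and desmosome list 15 of 22 genes were higher in MLCs and 1 in APCs. Cdh1, coding for the E-cadherin of most epithelia, was at 1.48 ± 2.50 in APCs and 38.1 ± 5.40 in MLCs. Cdh3, coding for P-cadherin, was at 1.69, 3.02, 1.43 and 3.46 in APCs and 1598, 1507, 1479 and 1545 in MLCs. Cdh11, a cadherin of mesenchyme, was present in both populations, at 4589.6 ± 521 in APCs and 19360.3 ± 569.8 in MLCs, and was called higher in MLCs. Desmosomes tie keratin filaments to the cell border, and of their genes Dsp, coding for desmoplakin, was at 1.69, 1.01, 0 and 1.73 in APCs and 854, 907, 837 and 1008 in MLCs, Pkp2 differed by -5.49 ± 0.43 and Dsg2 by -5.91 ± 0.53. Epcam, coding for an epithelial adhesion molecule, was at 1.18 ± 1.46 in APCs and 81.6 ± 22.1 in MLCs. Nectin1 was the member higher in APCs (2.22 ± 0.10), and Ctnnb1, coding for beta-catenin, was not called, at 10111 ± 270.4 in APCs and 10688 ± 134 in MLCs.

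Few of the transcription factors that set up epithelia elsewhere were present. Of 11 such factors and splicing regulators 4 reached the filter, and 3 of them were higher in MLCs. They were Klf5 (-3.14 ± 0.13), Grhl1 (-3.04 ± 0.41) and Esrp2 (-4.20 ± 0.56). Grhl2, Ovol2, Esrp1 and Trp63 did not reach the filter, with means of 1.22 to 4.54 in MLCs. The factors known to repress epithelial genes or to mark mesenchyme were higher in APCs or not called. Of 8 tested 6 were higher in APCs and 0 in MLCs. Zeb2 was at 7323, 7587, 7463 and 7439 in APCs and 963, 966, 974 and 839.8 in MLCs, and Snai2 at 503, 620.3, 635 and 783 in APCs and 106, 98.1, 97.4 and 118 in MLCs; no library overlapped in either. Prrx1 (3.07 ± 0.11), Twist2 (2.72 ± 0.08) and Snai1 (1.61 ± 0.11) were also higher, and Zeb1 (0.82 ± 0.05) was not called.

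SNAI and ZEB proteins bind the E-box CACCTG, so the promoter windows of the genes tested were searched for these letters on both strands (CACCTG or CAGGTG), beside the other 9 forms of CANNTG. RefSeq windows of 300 bases on GRCm38, from 250 before to 50 after a gene's first listed start, were matched for 11079 of the 14431 genes. CACCTG occurred in 17.5% of all windows, in 28.6% of the 1896 windows of genes higher in MLCs, in 15.997% of the 1169 of genes higher in APCs, and in 15.1% of those not called. Among genes at least 32-fold higher in MLCs it was in 34.7%, and among those at least 32-fold higher in APCs in 14.4%. The share stayed above that of genes not called in windows of low, middle and high CpG count, at 25.7% against 18.3%, 30.2% against 14.4% and 32.4% against 13.3%. For comparison, the E-box CAGCTG was in 19.3% of windows of genes higher in MLCs and 19.1% of those higher in APCs, against 13.8% of those not called, and CACGTG in 8.54%, 8.90% and 10.6%. The motif was picked after the expression values were seen, no test was made, and a match is not evidence of binding.

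Of the 28 genes of the apical, keratin and junction lists that were higher in MLCs and had a window, 14 held CACCTG. The share over all windows of genes higher in MLCs was 28.6%. Genes with the motif were 1 of 5 apical surface, 3 of 4 keratin, 7 of 14 tight junction and 3 of 5 adherens junction and desmosome genes. The 250 bases before the start of 6 of them are shown as examples, 3 keratin and 3 junction genes; letters run 5′ to 3′ on the gene's strand and capitals mark CACCTG or CAGGTG.
Krt7: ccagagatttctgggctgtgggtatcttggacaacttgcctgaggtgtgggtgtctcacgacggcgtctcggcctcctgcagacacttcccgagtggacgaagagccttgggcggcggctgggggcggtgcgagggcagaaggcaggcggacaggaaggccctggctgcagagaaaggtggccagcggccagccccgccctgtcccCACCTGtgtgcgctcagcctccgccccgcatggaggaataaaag
Krt8: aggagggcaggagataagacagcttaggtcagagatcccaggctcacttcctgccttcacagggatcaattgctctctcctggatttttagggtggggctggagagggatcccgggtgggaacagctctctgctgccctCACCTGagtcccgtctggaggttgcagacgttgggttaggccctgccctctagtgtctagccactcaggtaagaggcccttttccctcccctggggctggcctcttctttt
Krt18: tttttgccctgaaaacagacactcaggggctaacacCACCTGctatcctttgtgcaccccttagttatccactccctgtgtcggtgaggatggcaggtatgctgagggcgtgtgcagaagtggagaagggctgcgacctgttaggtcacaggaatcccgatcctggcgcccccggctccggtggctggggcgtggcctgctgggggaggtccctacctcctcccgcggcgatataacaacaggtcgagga
Pard6b: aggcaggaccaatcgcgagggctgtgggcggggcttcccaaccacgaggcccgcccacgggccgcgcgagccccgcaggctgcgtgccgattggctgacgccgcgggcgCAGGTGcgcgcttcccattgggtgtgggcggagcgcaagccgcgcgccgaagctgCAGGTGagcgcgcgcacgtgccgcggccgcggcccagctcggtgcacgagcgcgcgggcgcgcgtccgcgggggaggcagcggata
F11r: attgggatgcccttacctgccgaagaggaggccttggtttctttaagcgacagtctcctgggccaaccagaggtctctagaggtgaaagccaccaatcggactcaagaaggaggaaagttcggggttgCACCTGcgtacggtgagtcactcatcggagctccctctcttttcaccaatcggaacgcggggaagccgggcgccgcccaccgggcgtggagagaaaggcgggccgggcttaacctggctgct
Nectin2: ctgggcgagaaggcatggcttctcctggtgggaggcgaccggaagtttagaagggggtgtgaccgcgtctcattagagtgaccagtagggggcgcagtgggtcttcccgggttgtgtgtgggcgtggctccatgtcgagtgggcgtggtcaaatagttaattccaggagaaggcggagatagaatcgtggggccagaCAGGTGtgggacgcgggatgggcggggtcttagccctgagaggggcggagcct
The first base of the capitals lay 44 bases before the start in Krt7, 111 in Krt8, 214 in Krt18, 141 and 86 in Pard6b, 122 in F11r and 53 in Nectin2. Nectin2, coding for an adhesion molecule of the nectin family, differed by -1.82 ± 0.05 in expression.

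**Figure D3:**
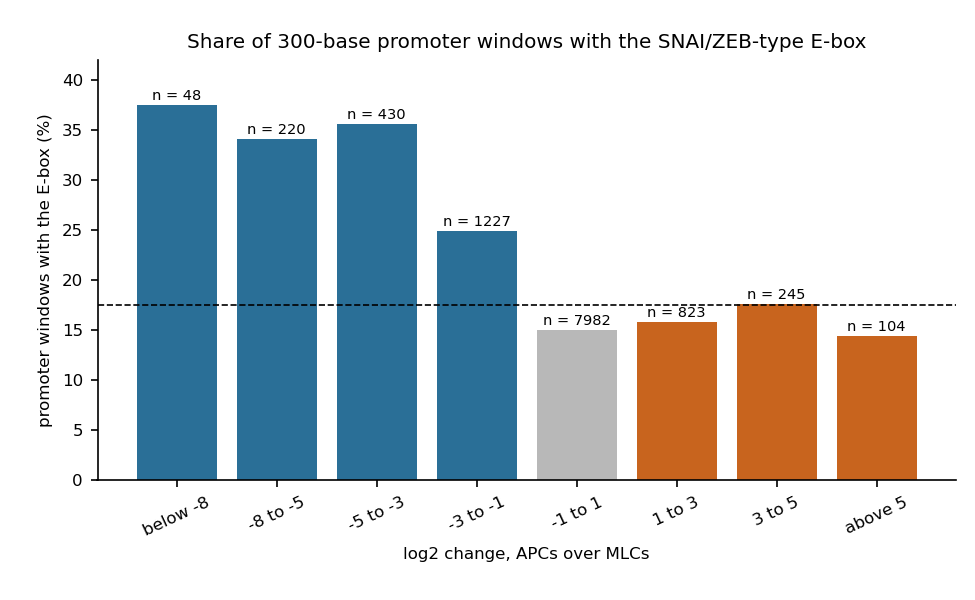
Share of promoter windows that hold CACCTG on either strand (y axis, percent) by the log2 change of APCs over MLCs (x axis, 8 classes), with the number of windows over each bar and the share over all windows (17.5%) as a line. The share is near the line or below it for genes that did not change or were higher in APCs, and lies between 24.9% and 37.5% in the 4 classes of genes higher in MLCs.

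The factors that pattern the body cavity and its mesoderm split between the populations. Of 26 tested 9 were higher in APCs and 12 in MLCs. Wt1 was not absent from APCs: its values were 3958, 3782, 4214 and 4029 in APCs and 11659.9, 11669, 12067 and 12076 in MLCs. Gata6, coding for a GATA zinc finger factor, had the same form, at 2039, 2308, 2098 and 2030.1 in APCs and 6679, 6749, 6727 and 7044 in MLCs. By contrast Bnc1, coding for basonuclin 1, Gata5, Isl1, coding for a LIM homeobox factor, and Sox6 were at or below 32.2 in every APC library and had log2 changes of -9.91 ± 0.33, -8.30 ± 0.39, -8.88 ± 0.37 and -7.02 ± 0.16. Gata4 (-3.99 ± 0.17) and Hand2 (-5.55 ± 0.56) were higher in MLCs too. On the APC side stood Tcf21, a helix-loop-helix factor of stromal mesoderm, at 1436, 1534, 1833 and 2161 in APCs and 30.2, 49.0, 45.7 and 33.5 in MLCs. Sox9 (5.80 ± 0.10), Nr2f1 (5.89 ± 0.11) and Osr2 (4.10 ± 0.20) were also higher in APCs, while Osr1, the paralog of the last, was higher in MLCs (-2.67 ± 0.07).

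Hox genes, which record position along the body axis, differed by cluster. Of 26 tested 6 were higher in APCs and 5 in MLCs. All 6 on the APC side were in the Hoxb cluster, among them Hoxb3 at 511 ± 53.0 in APCs and 86.5 ± 5.76 in MLCs and Hoxb2 at 199 ± 11.7 in APCs and 27.3 ± 7.72 in MLCs. On the MLC side were Hoxd3 (14.2 ± 4.33 in APCs and 119 ± 18.8 in MLCs), Hoxd4 (-2.58 ± 0.14), Hoxd9, Hoxa9 and Hoxa10. None of the Hoxc genes was called, with Hoxc8 at 1610.1 ± 153 in APCs and 1145 ± 66.5 in MLCs. Without APCs replicate 4 the counts were 7 and 6, and with quantile normalization they were 9 and 4.

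Of 22 adipogenic transcription factors 7 were higher in APCs and 1 in MLCs (median log2 0.86). Pparg was at 1200.2, 1325, 1293 and 1311 in APCs and 38.5, 43.1, 45.0 and 31.7 in MLCs. Cebpa, which works with Pparg in fat cell formation, differed by 4.26 ± 0.12 and Cebpd by 3.86 ± 0.12, and Cebpb was not called, at 3142 ± 388 in APCs and 2926 ± 265 in MLCs. Early B cell factors act beside Pparg in fat cell precursors: Ebf2 was at 3427, 3788, 3745 and 3643 in APCs and 43.6, 38.1, 37.6 and 37.9 in MLCs, Ebf1 differed by 6.04 ± 0.19 and Ebf3 by 5.06 ± 0.10. The zinc finger genes Zfp423 (0.90 ± 0.11) and Zfp521 (0.69 ± 0.05), a commitment factor and its antagonist, were below the 2-fold limit. Ppargc1a, a coactivator of mitochondrial genes, was the 1 member higher in MLCs (-1.03); it was at 11.8 ± 4.75 in APCs and 24.7 ± 9.12 in MLCs and was not called without APCs replicate 4 (-0.71) or without MLCs replicate 3 or 4.

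Genes of lipid uptake, storage and release went both ways. Lpl, coding for lipoprotein lipase, which frees fatty acids for uptake, was at 47403, 43636, 59957 and 70435 in APCs and 602, 775, 691 and 471 in MLCs. Cd36, a fatty acid transporter (2.79 ± 0.47), Fabp4, a fatty acid carrier (2.18 ± 0.32), and Dgat2, which makes triglyceride (1.78 ± 0.12), were higher in APCs as well. In all 10 of 26 fatty acid genes were higher in APCs and 3 in MLCs, the latter Fabp5 (-1.29 ± 0.17), Acacb (-1.07 ± 0.11) and Slc27a4 (-1.06 ± 0.06). Fasn, coding for fatty acid synthase, was not called (0.57 ± 0.13). Of 12 droplet and lipolysis genes 5 were higher in APCs. Plin1, coding for the droplet coat perilipin 1, was at 1867, 1466, 1686 and 1411 in APCs and 51.9, 60.9, 45.0 and 39.6 in MLCs. Mgll, the last lipase of triglyceride breakdown, was the exception, at 286, 199, 278 and 268 in APCs and 2740.5, 2679.9, 2641 and 2922 in MLCs. Among secreted factors Adipoq, coding for adiponectin, was at 261 ± 96.5 in APCs and 35.0 ± 4.70 in MLCs, Apoe at 43980.4 ± 4183 in APCs and 11246 ± 860.2 in MLCs, and Rarres2, coding for the chemoattractant chemerin, at 1819.8 ± 179 in APCs and 7913 ± 399 in MLCs. Cfd, coding for adipsin, was at 38.0, 10.1, 12.9 and 453 in APCs and 64.5, 101, 114 and 58.1 in MLCs: it was not called with all libraries and was called higher in MLCs without APCs replicate 4 (log2 -2.17).

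Imprinted genes, expressed from 1 parental copy and many of them regulators of fetal growth, were mostly higher in APCs or not called. Of 19 tested 11 were higher in APCs and 1 in MLCs (median log2 1.21). H19, a noncoding RNA of the imprinted cluster on chromosome 7, was at 96910.2, 107887, 99638 and 95832 in APCs and 715, 1085, 732 and 695 in MLCs. Igf2, its neighbour in that cluster, which codes for a fetal growth factor, was at 39815, 45505, 40281 and 41971 in APCs and 699, 1067, 725 and 791 in MLCs. Mest (3.21 ± 0.07), Peg3 (2.90 ± 0.10), Dlk1, coding for an inhibitor of fat cell formation (2.51 ± 0.10), and Cdkn1c, coding for a cell cycle inhibitor (1.601 ± 0.08), were higher in APCs. Meg3, a noncoding RNA of the cluster that holds Dlk1, was not called, at 33889.7 ± 13031 in APCs and 37545 ± 2487 in MLCs. The member higher in MLCs was Nnat (-1.74 ± 0.09).

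In the IGF axis the growth factors and several of their binding proteins were on opposite sides. Igf1 was higher in APCs as well (1.94 ± 0.10), while 4 of the 6 binding protein genes were higher in MLCs. Igfbp2 was at 25.4, 19.1, 7.15 and 62.3 in APCs and 3192, 3665, 3982 and 4127 in MLCs, and Igfbp6, which binds IGF2 with preference, at 1099.6, 1142, 1289 and 1786 in APCs and 22409, 24020.1, 24301 and 23171 in MLCs. Igfbp5 (-1.51 ± 0.11) and Igfbp4 (-1.23 ± 0.07) had smaller changes. The receptor gene Igf1r was not called, at 2497 ± 371 in APCs and 3418 ± 112 in MLCs.

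Of 7 PDGF genes 3 were higher in APCs, the 2 receptors described above and Pdgfrl, coding for a receptor-like protein (6.81 ± 0.16), and 2 in MLCs, both ligands. Pdgfa was at 85.4, 112, 84.4 and 112 in APCs and 550.4, 445, 499 and 509 in MLCs, and Pdgfb was at 11.6 ± 5.94 in APCs and 44.0 ± 9.71 in MLCs, both higher in MLCs. Pdgfc had a log2 change of -0.95, under the limit, and was called higher in MLCs without APCs replicate 4 (-1.03). The ligand Pdgfd, at 297 ± 64.1 in APCs and 304 ± 29.8 in MLCs, was not called.

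FGF ligands were found on both sides. Fgf10, a ligand that acts on epithelial FGF receptors and supports fat cell formation, was at 4816, 5598, 5152 and 6018 in APCs and 54.5, 65.1, 80.4 and 51.1 in MLCs, and Fgf7 of the same subfamily differed by 3.97 ± 0.29. Fgf9 was at 0.845, 1.01, 1.43 and 5.19 in APCs and 1359, 1187, 1134 and 1072 in MLCs, with every APC library at or below 5.19. Fgf1 was at 121, 90.6, 101 and 89.9 in APCs and 13150.3, 10593, 11892 and 11570.1 in MLCs, and Fgf16, a relative of Fgf9, was higher in MLCs as well (-2.94 ± 0.43). Receptors Fgfr1 (1.74 ± 0.05), Fgfr2 (1.44 ± 0.06) and Fgfr4 (2.06 ± 0.13) were higher in APCs and Fgfr3 in MLCs (-1.65 ± 0.13). Of 17 FGF genes 9 were higher in APCs and 5 in MLCs. Of 13 genes of the EGF family 8 were higher in MLCs and 2 in APCs. On the MLC side were the ligands Hbegf (-2.15 ± 0.12), Tgfa (-2.36 ± 0.12), Btc (-2.84 ± 0.30) and Ereg (-2.67 ± 0.30) and the receptor Erbb3 (-5.84 ± 0.19). Areg (-4.15 ± 0.26) and Nrg1 (-3.71 ± 0.43), a ligand of ERBB3, were higher in MLCs too. On the APC side were the receptor Egfr, at 7149, 6852, 6851 and 5938 in APCs and 3033, 3004, 3067 and 2829 in MLCs, and Errfi1, coding for a feedback inhibitor of that receptor (1.85 ± 0.07). The other 3 genes were not called.

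Wnt ligands and their modulators changed in both directions. Of 10 Wnt genes tested 6 were higher in MLCs and 3 in APCs, the latter Wnt5a, Wnt5b and Wnt11, ligands often tied to signalling without beta-catenin (1.502, 1.51 and 1.51). With quantile normalization 4 were higher in MLCs. Wnt2b was at 401, 404, 335 and 287 in APCs and 7954, 7890.0, 8315 and 7598 in MLCs, and Wnt9a differed by -2.70 ± 0.08. Wnt7b was at 148 ± 19.5 in MLCs, with 2 reads in all in APCs. R-spondins raise the number of Wnt receptors on a cell, and the 2 that were called lay on opposite sides: Rspo1 was at 1354, 1212, 1259.6 and 967 in APCs and 7053, 6891, 6908 and 7082 in MLCs, and Rspo3 at 1684, 1822, 1972 and 2053 in APCs and 41.1, 33.8, 34.7 and 36.1 in MLCs. Secreted inhibitors were also divided, with Sfrp1 (5.28 ± 0.09) and Dkk2 (4.55 ± 0.15) higher in APCs and Sfrp2 (-2.70 ± 0.06) and Dkk3 (-3.98 ± 0.09) higher in MLCs. Axin2 (-1.87 ± 0.08), Nkd1 (-1.51 ± 0.05) and Rnf43 (-3.28 ± 0.38), feedback genes that beta-catenin signalling induces, were higher in MLCs. The list of modulators and targets had 4 of 14 genes higher in APCs and 7 in MLCs. Most Wnt receptor genes, 11 of 17, were not called, and 1 was higher in APCs and 5 in MLCs. Among those 5 were Fzd1, Fzd3, Fzd5 and Fzd6 (-2.04, -1.77, -1.80 and -5.05).

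BMP genes leaned to MLCs. Of 29 tested 12 were higher in MLCs and 4 in APCs. Bmp4 was at 54.1, 57.4, 50.04 and 41.5 in APCs and 1468, 1411, 1443 and 1568 in MLCs. Bmp6 (-5.15 ± 0.22) and Bmp7 (-4.97 ± 0.30) were higher in MLCs, together with the target genes Id1 (-1.59 ± 0.13) and Smad6 (-1.47 ± 0.08). Id2 (0.52 ± 0.15) and Id3 (0.58 ± 0.10), also targets, were not called. Gdf10 (6.10 ± 0.10) and Bmper, coding for a BMP-binding protein (4.37 ± 0.10), were higher in APCs. In the TGF-beta list 5 of 15 were higher in APCs and 2 in MLCs, or 4 and 1 without APCs replicate 4. Ltbp1, coding for a protein that holds latent TGF-beta in the matrix, was at 13923, 15082, 15075 and 13975 in APCs and 438, 477, 441 and 449 in MLCs. The 3 TGF-beta ligands and the receptors Tgfbr1, Tgfbr2 and Tgfbr3 were not called, from -0.72 to 0.996.

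Notch receptors 1 and 3 were higher in APCs. Notch1 was at 4195, 4747, 4053 and 2673 in APCs and 88.0, 78.6, 76.7 and 107 in MLCs, and Notch3 differed by 5.02 ± 0.10. Notch2 was not called (-0.60 ± 0.08). The target gene Heyl (5.03 ± 0.17), Hey1 (1.47 ± 0.21) and Hes1 (1.25 ± 0.11) were higher in APCs. The ligand Jag1 was higher in APCs (1.30 ± 0.06), and the ligands Jag2 (-2.71 ± 0.38) and Dll1 (-1.95 ± 0.26) and the receptor-modifying enzyme Lfng (-1.51 ± 0.08) were higher in MLCs. Of 10 hedgehog genes 3 were higher in APCs and 1 in MLCs. Gli2, coding for a transcription factor of the pathway, was at 1325 ± 184 in APCs and 292 ± 21.8 in MLCs, and the coreceptor Cdon, on the MLC side, at 10869 ± 594 in APCs and 31667 ± 709 in MLCs. Of 28 axon guidance genes 10 were higher in each population. The Slit ligands Slit2 (3.06 ± 0.07) and Slit3 (1.75 ± 0.07) and their receptors Robo1 (3.21 ± 0.10) and Robo2 (3.80 ± 0.12) were higher in APCs. The semaphorins Sema3a (-2.23 ± 0.14), Sema3b (-1.99 ± 0.07), Sema3c (-1.34 ± 0.07) and Sema3f (-3.92 ± 0.09) were higher in MLCs, and their receptor Nrp1 in APCs (2.52 ± 0.07).

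**Figure D4:**
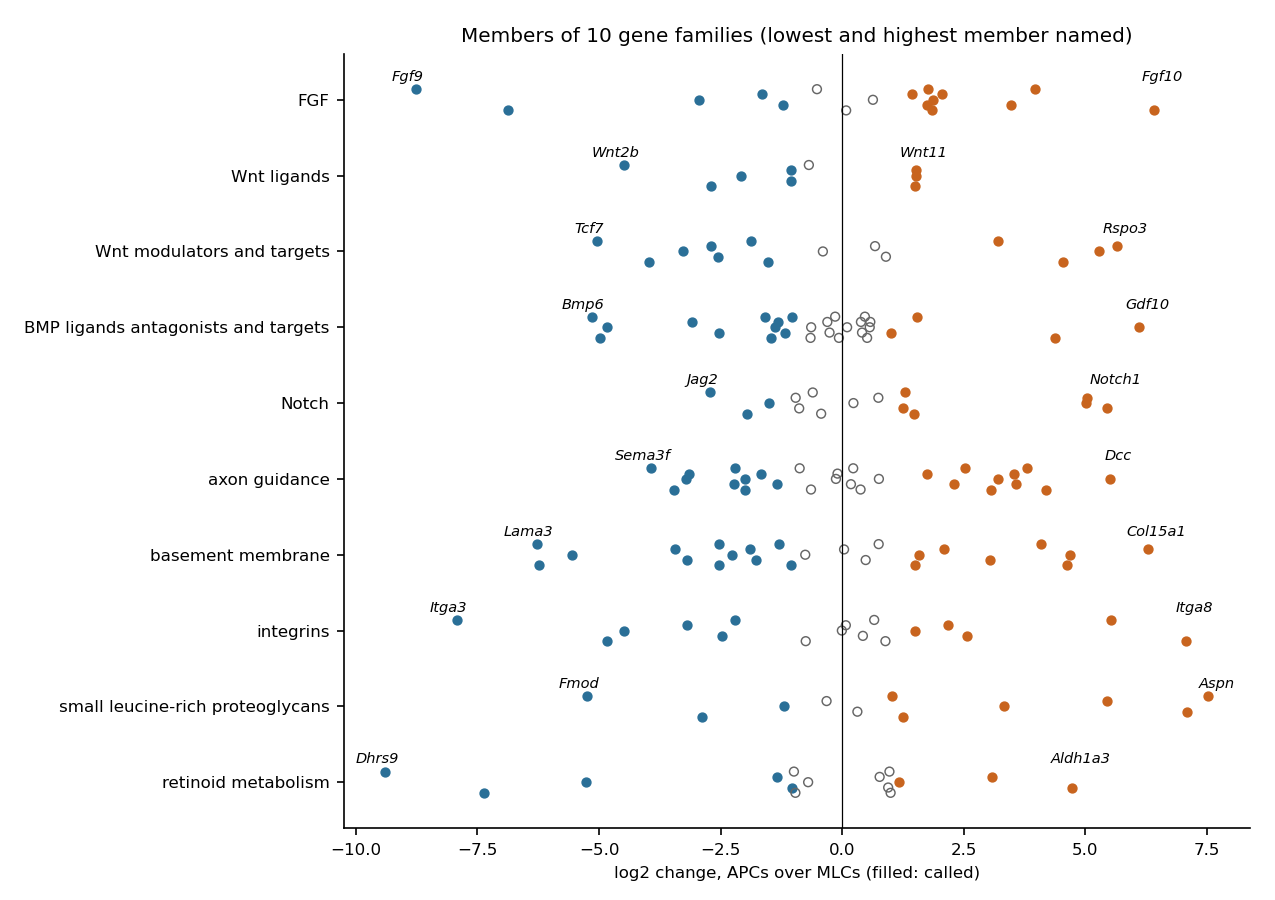
Log2 change of APCs over MLCs (x axis, limma on log2(value + 1)) of the tested members of 10 gene families, 1 point per gene, filled where called; genes with 3 reads or fewer in a population are left out. Called members of each family lie on both sides of 0, for example Fgf10 (6.42) and Fgf9 (-8.76) or Col4a1 (4.68) and Lama3 (-6.28).

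Basement membrane genes differed chain by chain. Of 24 tested 8 were higher in APCs and 12 in MLCs. Collagen IV is built from 3 chains drawn from 6 genes. Col4a1, a chain of the common network, was at 63027, 64048, 66211 and 62602 in APCs and 2368, 2704, 2379 and 2549 in MLCs, and its partner Col4a2 differed by 4.09 ± 0.06. The other 4 chains were higher in MLCs: Col4a3 (-1.89 ± 0.08), Col4a4 (-2.26 ± 0.06), Col4a6 (-1.77 ± 0.06) and Col4a5 (-1.04 ± 0.08, or -0.97 and no longer called without APCs replicate 1). Among laminin alpha chains Lama2 (3.04 ± 0.09) and Lama1 (4.64 ± 0.18) were higher in APCs, and Lama3 (-6.28 ± 0.35) and Lama5, at 61.7, 51.4, 32.9 and 69.2 in APCs and 3743, 4171, 3758 and 4227 in MLCs, were higher in MLCs. Among the gamma chains Lamc1 was higher in APCs (1.58 ± 0.08), and Lamc3 was higher in MLCs (-5.56 ± 0.12). Of the 2 related collagens with an endostatin-type end, Col15a1 was at 112855, 117782, 119318 and 101349 in APCs and 1474, 1444, 1587 and 1250.1 in MLCs, and Col18a1 at 2749, 2663, 2649 and 2469 in APCs and 30136, 28598, 28028 and 27591 in MLCs. Nid1 was higher in APCs (2.11 ± 0.06) and Nid2 in MLCs (-1.30 ± 0.07). Agrn, coding for agrin, was higher in MLCs (-2.54 ± 0.05), and Hspg2, coding for perlecan, was not called (0.49 ± 0.20).

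Chains of the main fibrillar collagens, Col1a1, Col1a2 and Col3a1, were not called. Col1a1 was at 438200.3 ± 15032 in APCs and 404266 ± 16570.1 in MLCs, and the log2 changes of Col1a2 and Col3a1 were 0.41 and 0.51. Of 18 collagen genes of this list 8 were higher in APCs, with all 3 chains of collagen V from 1.36 to 1.76, and 2 in MLCs, Col14a1 (-1.20 ± 0.07) and Col6a5 (-1.08 ± 0.08). Without APCs replicate 4 those higher in MLCs were 3. Proteoglycans that coat collagen fibrils went both ways: Bgn, coding for biglycan, was higher in APCs (3.34 ± 0.09), and Fmod, coding for fibromodulin, was at 417, 437, 449.7 and 557 in APCs and 18978, 17349, 17366 and 16899.6 in MLCs, with Podn (-2.89 ± 0.05) on the same side. Among 19 elastic fibre and crosslinking genes 11 were higher in APCs and 2 in MLCs. Fibrillin 1, from Fbn1, was higher in APCs (2.09 ± 0.11), and Eln, coding for elastin, was at 32384, 26395, 34311 and 35533 in APCs and 96330.2, 89687, 90914 and 93609 in MLCs. Fn1, coding for fibronectin, was not called (0.32 ± 0.14). Of 19 adhesive and matricellular genes 8 were higher in APCs and 3 in MLCs, the latter 5 without APCs replicate 4. Sparcl1 was higher in APCs (6.65 ± 0.08) and its relative Sparc was not called, at 82987 ± 11309 in APCs and 100238 ± 1810.1 in MLCs. Thrombospondins 1 and 2, from Thbs1 (1.82 ± 0.12) and Thbs2 (2.71 ± 0.26), were higher in APCs, and thrombospondin 4, from Thbs4, was at 1.69, 1.01, 4.29 and 3.46 in APCs and 199, 188, 207 and 201 in MLCs. Mmp2, coding for a gelatinase, was at 26939.6, 28811, 30127 and 30055 in APCs and 273, 401, 299 and 296 in MLCs, and 9 of 22 protease and inhibitor genes were higher in APCs against 2 in MLCs, Timp3 (-1.87 ± 0.10) and Plau (-1.42 ± 0.17); without APCs replicate 4 the latter were 3. Adamts12 (4.80 ± 0.06) and Adamts4 (4.12 ± 0.13), secreted metalloproteases, and Serpinf1, coding for a secreted serpin (3.26 ± 0.09), were higher in APCs.

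Integrin alpha chains were divided. Itga8 (7.07 ± 0.23) and Itga11 (5.53 ± 0.13) and Itga9 (2.56 ± 0.08), partners of the beta-1 chain, were higher in APCs. Itga3, a laminin receptor chain, was at 26.2, 24.2, 17.9 and 15.6 in APCs and 5211, 5197, 5048 and 5466 in MLCs. The other laminin receptor chains Itga6 (-2.20 ± 0.12), Itga7 (-2.48 ± 0.10) and Itgb4 (-4.48 ± 0.20) were higher in MLCs too, as was Itgb8, a partner of the alpha-v chain that activates latent TGF-beta (-4.83 ± 0.13). Of 17 integrin genes 5 were higher in APCs and 6 in MLCs. Hyaluronan synthases also differed among themselves, with Has2 (3.63 ± 0.23) and Has1 (1.45 ± 0.19) higher in APCs and Has3 in MLCs (-1.26 ± 0.26).

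Chemokine and cytokine genes went both ways. Of 22 chemokine and cytokine genes 9 were higher in APCs and 7 in MLCs. Ccl11, coding for the eosinophil attractant eotaxin, was at 2045, 2094, 2777 and 3079.7 in APCs and 13.4, 10.99, 19.9 and 15.8 in MLCs. Cxcl12 (5.11 ± 0.13), Il6 (4.35 ± 0.17) and Ccl7 (1.91 ± 0.16) were higher in APCs. Cxcl13, a B cell attractant (-3.90 ± 0.25), Cxcl16 (-1.20 ± 0.18) and Il33, an alarmin (-1.16 ± 0.15), were higher in MLCs. Cxcl14 was at 51.6, 46.3, 45.0 and 1707 in APCs and 481, 785, 724 and 556 in MLCs, with 1 APC library above all MLC libraries and the others below them: it was not called with that library (-2.40, adjusted p = 0.0504) and was called higher in MLCs without it (-3.69), and its adjusted p ran from 1.78e-09 to 0.858 over the alternatives. Csf1r, coding for the receptor of the macrophage growth factor CSF1, was at 27.0, 23.2, 23.6 and 41.5 in APCs and 2108, 2271, 2014 and 2449 in MLCs, while Ptprc and Adgre1, which define macrophages, were at 4.36 ± 4.56 in APCs and 5.36 ± 4.47 in MLCs and 3.45 ± 2.64 in APCs and 6.04 ± 3.05 in MLCs. Csf1, its ligand, was not called (0.59 ± 0.11).

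Of 15 complement genes 5 were higher in MLCs and 2 in APCs, or 6 and 2 without APCs replicate 4, and 4 and 3 with quantile normalization. C3, the central component, was higher in MLCs, at 18314, 19457, 20742 and 22399.9 in APCs and 91973, 97572, 92669.9 and 92255 in MLCs. C2 was at 552, 623, 656 and 903 in APCs and 19377, 18836, 18338 and 18657 in MLCs, and Cfb, coding for factor B, differed by -3.90 ± 0.15. Cd55, coding for a membrane inhibitor of complement, was higher in APCs (3.32 ± 0.08). C1s1 (0.90 ± 0.07), which acts in the classical pathway, was not called.

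Interferon response genes were higher in MLCs or not called, with large differences between libraries. Of 24 tested 13 were higher in MLCs and 0 in APCs (median log2 -1.33), and 15 and 0 without APCs replicate 4. Oasl2 was at 215, 354, 192 and 631 in APCs and 5559, 5764, 5100.3 and 7751 in MLCs. Isg15, coding for a ubiquitin-like protein, was at 27.9, 66.5, 27.2 and 138 in APCs and 200.2, 342, 187 and 757 in MLCs; the populations did not overlap, and replicate 4 was highest in both. Ifit1 was at 31.3, 187, 42.2 and 405 in APCs and 181, 381, 183 and 1104 in MLCs and was not called (-1.76), but was called higher in MLCs without APCs replicate 4 (-2.43). The class I antigen genes H2-K1 (-1.71 ± 0.22) and H2-D1 (-1.38 ± 0.20), which are near-identical in parts and may share reads, were higher in MLCs, and B2m, coding for their light chain, was not called (-0.28 ± 0.26). Irf1, an interferon-regulated transcription factor, had a log2 change of 0.98 towards APCs, under the limit, and was called without MLCs replicate 2 (1.02) or 4 (1.08).

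Retinoic acid is made from retinaldehyde by 3 related enzymes, and these were distributed unequally. Aldh1a2 was at 26.2, 22.2, 15.7 and 221 in APCs and 6619, 6453, 6309.9 and 6412 in MLCs, with APCs replicate 4 above the other APC libraries but far below every MLC library. Aldh1a3 was at 751, 848, 909 and 1198 in APCs and 29.3, 33.0, 38.4 and 33.5 in MLCs, and Aldh1a1 was higher in MLCs (-1.33 ± 0.12). Dhrs9, coding for a retinol dehydrogenase, was at 0.845, 2.01, 2.86 and 0 in APCs and 1372, 1331, 1494 and 1608 in MLCs, and Stra6, a receptor for retinol uptake, at 3.88 ± 2.77 in APCs and 149 ± 9.49 in MLCs. Crabp1, a retinoic acid carrier, was higher in APCs (3.09 ± 0.22). In all 3 of 15 were higher in APCs and 5 in MLCs; with quantile normalization the counts were 6 and 4, and with equal totals 3 and 7.

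Prostaglandin genes went both ways, with 5 of 14 higher in APCs, 6 in MLCs and 3 not called. Without APCs replicate 4 the counts were 6 in APCs and 5 in MLCs. The cyclooxygenases that start prostaglandin synthesis were higher in MLCs. Ptgs2 was at 483, 509.5, 731 and 932 in APCs and 5126, 6072, 6926 and 6735 in MLCs. Ptgs1 differed by -4.98 ± 0.12. Ptgis, which makes prostacyclin, was also higher in MLCs (-2.20 ± 0.05), and Ptges, which makes prostaglandin E2, was at 2491, 2409.8, 2511 and 2206 in APCs and 115, 124, 153 and 125 in MLCs. Of the receptors Ptger3 (-2.90 ± 0.07) was higher in MLCs, and Ptger4 (2.34 ± 0.13), Ptgfr (3.73 ± 0.37) and the prostacyclin receptor Ptgir (1.99 ± 0.20) in APCs. Glucocorticoid-converting enzymes were on the APC side, with Hsd11b2, which inactivates corticosterone, at 2686, 3366, 2998 and 2679 in APCs and 25.1, 32.1, 29.5 and 22.9 in MLCs, and Hsd11b1, which restores it, at 101 ± 11.8 in APCs and 2.06 ± 1.46 in MLCs. Nr3c1, coding for the glucocorticoid receptor, was not called (0.75 ± 0.06).

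Genes of fluid and ion movement were mostly higher in MLCs. Of 20 tested 11 were higher in MLCs and 4 in APCs. The water channel Aqp1 was at 240.0, 115, 142 and 175 in APCs and 3959, 3945, 3937 and 4029 in MLCs. Ano1, coding for a calcium-activated chloride channel, was at 83.7, 78.5, 89.4 and 45.0 in APCs and 11639.8, 11644, 11089 and 11609 in MLCs. Scnn1a, a subunit of the epithelial sodium channel, was at 21.8 ± 6.15 in APCs and 603 ± 29.4 in MLCs, while Scnn1b and Scnn1g did not reach the filter. Carbonic anhydrases were on opposite sides, with Car3 higher in APCs (5.02 ± 0.15) and Car9 (-4.66 ± 0.29) and Car12 (-5.09 ± 0.20) higher in MLCs.

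Of 31 cell cycle genes 8 were higher in MLCs (25.8%, against 17.8% of all genes) and 0 in APCs, and the list's median was -0.71. Mki67, a proliferation marker, was at 4381, 4922, 4420.1 and 2718 in APCs and 10479, 9887, 11000.1 and 9323 in MLCs, with APCs replicate 4 the lowest. Without that library 4 were called, and with quantile normalization 4. Of 22 immediate early and stress genes, which respond to tissue dissociation, 1 was higher in APCs (Zfp36, 1.405 ± 0.10) and 4 in MLCs, among them Hspa1a (-1.14 ± 0.07) and Hspa1b (-1.64 ± 0.07), a near-identical pair that may share reads. Fos (0.54 ± 0.10), Jun (0.54 ± 0.10) and Egr1 (0.45 ± 0.09) were not called. Glycolysis and cholesterol synthesis had 5 of 17 and 2 of 20 genes called, shares of 29.4% and 10% against 29.3% over all genes. Hk2, a hexokinase, was higher in APCs (2.61 ± 0.12), and Pkm, coding for pyruvate kinase, was higher in MLCs (-1.19 ± 0.07).

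**Figure D5:**
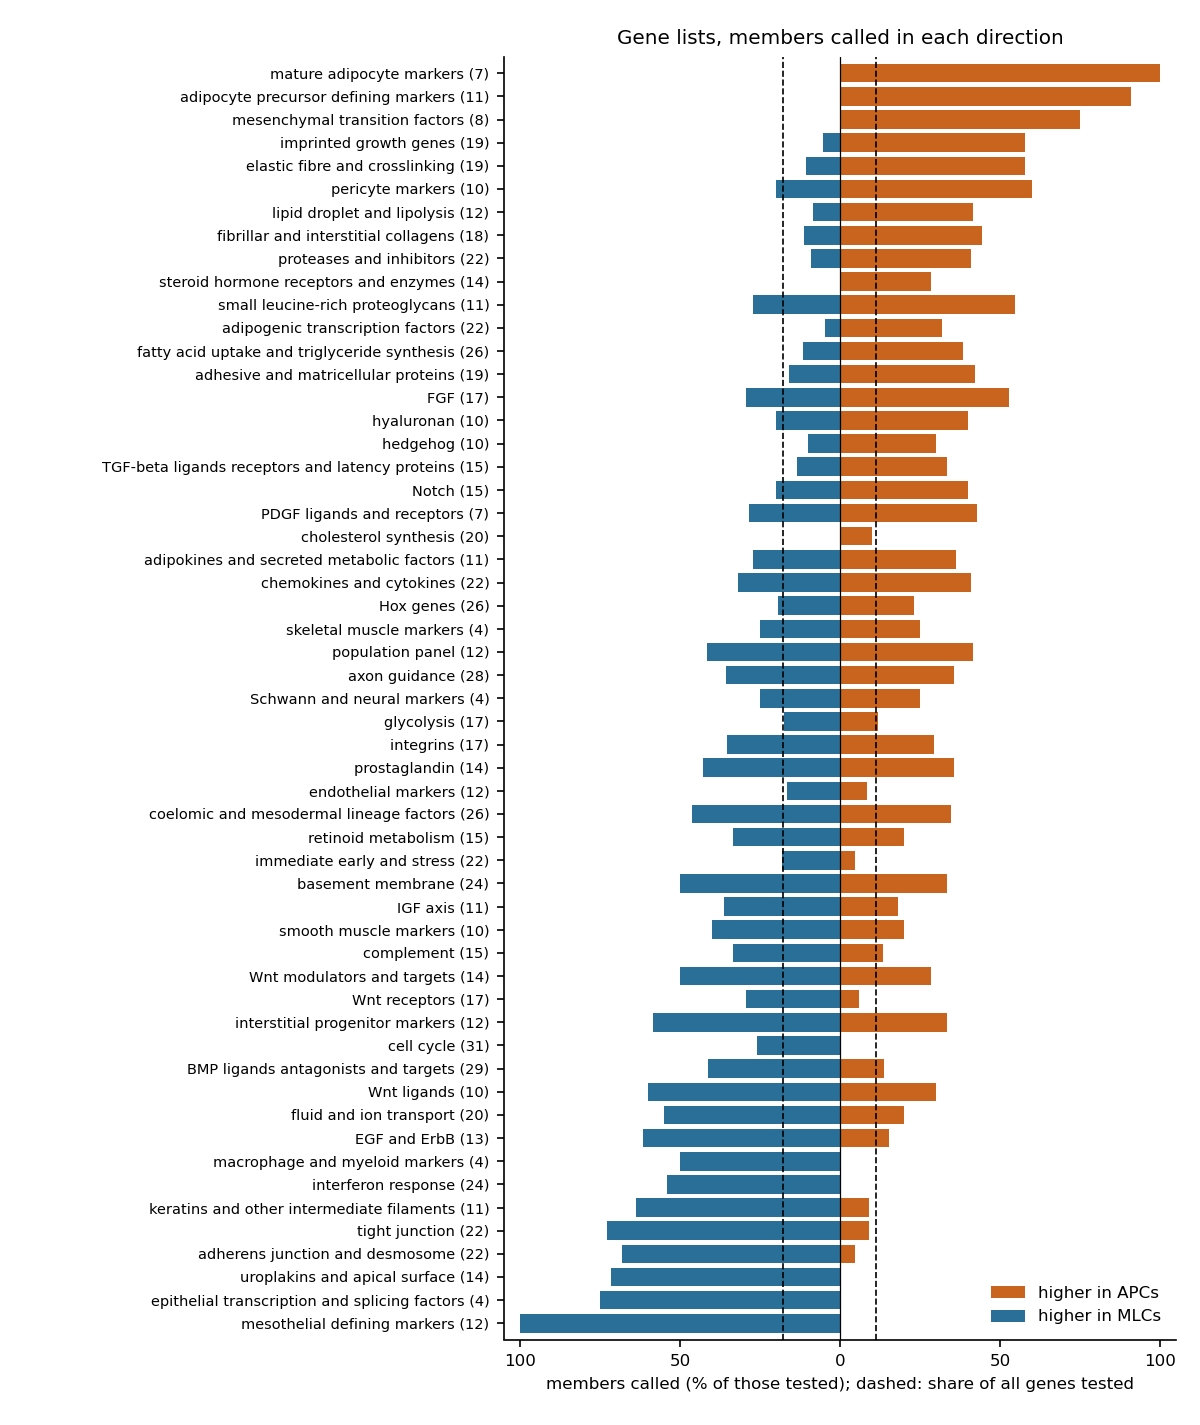
Share of the tested members of each gene list that were called higher in APCs (right) and higher in MLCs (left), in percent, with the number tested beside each list name and the shares over all 14431 genes (11.4% and 17.8%) as dashed lines. The mesothelial defining markers reach furthest left and the mature adipocyte and precursor markers furthest right, and most signalling and matrix lists extend to both sides.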

How the data were processed

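RNA of Pdgfrb-sorted cells was sequenced from 4 populations, 4 libraries each; APCs and MLCs were compared. The deposited values are a signal: read counts per gene that the authors divided by 1 size factor per library. Tools listed in the submitters' processing notes are DESeq2 1.6.3, featureCounts 1.4.6, HISAT2 2.0.1 and Trim Galore 0.4.1, with GRCm38 and mm10 as builds. Values in all 16 columns were whole multiples of the column's smallest value above 0 (tolerance 0.01). That value was taken as 1 read, which gave whole read counts. For APCs replicate 2 this step (1.007) lies near 1, so its depth and read counts were treated as less certain. Rows without a gene symbol (1275) were kept in the fit and are not named.

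The 8 columns were fitted on log2(value + 1) with limma 3.58.1 in R 4.3.3 (lmFit, eBayes with a trend, two-sided, Benjamini-Hochberg over 14431 genes), for genes with a value of 10 or more in 4 libraries, and calls needed both an adjusted p below 0.05 and a 2-fold change. The script was tested on simulated data. The members and the 58 gene lists were chosen with earlier results of these data known, so list counts describe and do not test; 946 of 948 list genes were matched by symbol. Named genes are the 15 largest changes each way among called genes without overlap and with a mean of at least 100, plus members of the lists. Apart from APCs replicate 2, which was not compared, no pair of libraries of a population was alike within counting noise. Where a group had 3 reads or fewer no fold is given, and intervals are not given because values were scaled. Alternatives were the pseudocount, the filter, 2 other scalings, all 16 libraries in 1 fit, a replicate block, each library left out, and edgeR 4.0.16 and DESeq2 1.42.0 on recovered counts without APCs replicate 2. Gene positions and promoter windows are from RefSeq, GRCm38.p6; of a gene's listed windows the first was used. A few genes of these lists are counted but not reported by name here.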

Additional observations from a re-analysis of the deposited data

Results flagged for a closer look

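Over both populations 258 sets of 4 library values were searched (the genes given by library and the summed lists, each population apart). Flagged were sets whose highest or lowest library had a gap to the nearest other above Dixon's limit, as a share of the range. Chance would give about 1 set in 20 if the sets were independent and picked without sight of the values. They were neither, since list sums include genes given by library and the genes were chosen with earlier results known. The number flagged therefore cannot be judged against that share. In all 17 of the 258 were flagged. Of these 7 were APCs replicate 4, which was highest for Acta2 (2388 normalized counts), Aldh1a2 (221), Cfd (453), Cxcl14 (1707), Fgf9 (5.19) and the summed smooth muscle markers (13560.3), and lowest for the summed Notch genes (12066). Replicate 1 was highest for the summed Hox genes in both populations, at 7417 in APCs and 5454 in MLCs. Among MLCs, replicate 1 was highest for Ebf2 (43.6), replicate 2 was highest for C3 (97572) and H19 (1085) and lowest for the summed tight junction genes (45295), and replicate 3 was lowest for Ano1 (11089). MLCs replicate 4 was highest for Krt8 (6207) and lowest for Zeb2 (839.8) and the summed fatty acid genes (25006). The MLC gaps were small beside the difference between the populations, and their causes were not tested.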

How the results depend on the processing

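The number of genes called and its split between the populations stayed within 1.5 times the reported values in all 18 alternative settings. It was 4248 with a pseudocount of 0.1 and 3911 with 8, 5631 with no filter on low values (1963 higher in APCs and 3668 in MLCs) and 3260 with a filter at 50. Leaving out 1 library at a time gave 4182 to 4255 genes, 1638 to 1668 higher in APCs and 2526 to 2614 higher in MLCs. Quantile normalization moved the median of all genes by 0.12 on the log2 scale and the split to 2093 and 2191, so that 48.9% of called genes were higher in APCs against 39.1%; 3832 of the 4225 calls held in the same direction. Count tests were run without APCs replicate 2, whose read counts are less certain. They called 4220 genes in edgeR and 4216 in DESeq2 and were chosen after the data were seen. The list genes called numbered 472 and ranged from 431 to 510. Among 321 tested genes named in the text 300 kept their direction and their side of the threshold in every setting.

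Changes of direction were limited to genes that had not been called. With quantile normalization Cd34 was at -0.16, Fn1 at -0.11, Hspg2 at -0.14 and Itgb1 at -0.083. With equal totals Itgb1 was at -0.012, Msn at -0.041, Rdx at -0.042 and Pecam1 at -0.013. Pecam1 ranged from -0.23 without MLCs replicate 2 to 0.33 without MLCs replicate 4, and was at -0.11 without APCs replicate 1. Pdgfd was at 0.082 with quantile normalization, 0.0405 in edgeR and 0.0362 in DESeq2, and ranged from -0.19 without APCs replicate 4 to 0.0292 without APCs replicate 2. Cfd was at 0.84 in edgeR and 1.003 in DESeq2, neither a call. Calls of Acacb (-0.91), Has3 (-0.88) and Hoxd9 (-0.95) were lost with quantile normalization; the cause was not tested.

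The replicate numbers do not pair the libraries by any label, and same-numbered libraries correlated in their deviations from the group means at 0.045 to 0.177. Of 8 such library comparisons 7 were highest with their own number, a hint from the data and not from the design. With the replicate number as a block 4247 genes were called, 1652 higher in APCs and 2595 in MLCs, all 4225 calls held, and 476 list genes were called; Cxcl14 (-2.40) and Ifit1 (-1.76) were then called higher in MLCs, as they were with all 16 libraries in 1 fit. Depth limits genes with a few reads: 1 read was worth about 0.715 (APCs replicate 3) to 1.73 (APCs replicate 4) normalized counts. Values under about 3 normalized counts thus rest on a few reads, or on 1.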

Other observations

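Interferon response genes varied between libraries in the same way in both populations. Of the 24 tested, 19 were highest in replicate 4 among APCs (79.2%, against 36.9% of all genes) and 23 among MLCs (95.8%, against 24.4%). Rsad2, coding for the antiviral enzyme viperin, was at 13.5, 30.2, 26.5 and 111 in APCs and 276, 687, 376 and 1916 in MLCs. Bst2, coding for the virus-tethering protein tetherin, was at 84.5, 147, 97.2 and 342 in APCs and 575, 841, 564 and 1621 in MLCs. The labels give no batch, litter or day for the replicate numbers, and the source of this pattern was not tested. It was noticed in these data and given no test.

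Among markers of other tissues a few single genes were high in 1 population while the genes that define the tissue were near 0. In the skeletal muscle list 1 of 4 tested members was higher in APCs, 1 in MLCs and 2 were not called. Its sum was 72.6 to 133 in APCs and 189 to 304 in MLCs. Myh8, coding for the perinatal myosin heavy chain of skeletal muscle, was at 0.845, 0, 0 and 0 in APCs and 200.2, 238, 196 and 144 in MLCs; Myod1, which defines muscle cells, had no library above 1.48. S100b, used as a Schwann cell marker and also present in fat cells, was at 105, 124, 127 and 166 in APCs and 25.1, 18.6, 21.4 and 18.5 in MLCs.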
